A study of Mus musculus with 247 samples.

Results

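PU.1 is the ETS-family transcription factor that macrophages cannot form without. Most of its peaks in these cells lay more than 1000 bp from a transcription start site. A minority of its sites sit at promoters, next to the point where RNA polymerase starts, and those are described here. The peaks were taken by position alone: a PU.1 peak counted as a promoter peak if its deposited distance to the nearest transcription start site was at most 1000 bp in either direction, which held for 6693 of 52093 peaks (12.8%). No PU.1 value entered that choice.

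The cells were RAW264.7, a mouse macrophage line of BALB/c origin, and the groups were GPS2 knockout (KO) cells made with CRISPR/Cas9 and wild-type (WT) cells, each with and without lipopolysaccharide (LPS), a bacterial wall component that activates macrophages. The labels do not say whether the KO cells were 1 clone, and all groups share the immortalised line. ChIP-seq mapped PU.1, and JunB as a subunit of AP-1, in 4 groups: KO cells with LPS for 2 hours, untreated KO cells, WT cells with LPS for 2 hours and untreated WT cells, with 2 libraries in each. RNA polymerase II and MED1, a part of Mediator, were mapped in KO and WT cells with LPS for 2 hours (2 libraries each), poly(A) RNA was sequenced in KO and WT cells with LPS at 10 ng/ml for 6 hours and in untreated KO and WT cells (4 libraries each), and open chromatin was mapped by ATAC-seq in untreated KO and CRISPR control cells (3 libraries each). GPS2 is a subunit of a corepressor complex with the HDAC3 deacetylase, TBL1 proteins and NCOR or SMRT, and the study asks how such corepressors act on regulatory DNA during inflammatory activation.

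As background, ETS factors bind a core of GGAA on either strand. PU.1 prefers purines before this core (GAGGAAGT), whereas GABPA and other ETS factors of widely used promoters prefer CCGGAAGT. Promoters of housekeeping genes are usually rich in CpG dinucleotides and stay unmethylated, while promoters of cell-type-specific and inducible genes are more often CpG-poor. AP-1 dimers such as those with JunB bind TGANTCA.

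A few promoter peaks carry most of the examples that follow, and the central 200 bases of each are shown so that the ETS cores can be read directly. Capitals mark every GGAA, or TTCC where the core lies on the other strand. The bases are the plus strand of mouse build mm9 (NCBIM37). The Treml4 stretch (chr17:48402998-48403197) is from the well-covered peak that rose most in KO against WT cells with LPS, and the Cenpo stretch (chr12:4232880-4233079) from the one that fell most there. Well-covered here means a mean of at least 30 reads, with no overlap between the libraries compared. The Cd36 stretch (chr5:17341795-17341994) is from the well-covered peak that fell most in KO against WT cells without LPS. The Pde2a (chr7:108598522-108598721) and Emp3 (chr7:53175789-53175988) stretches are from the well-covered peaks with the largest rise and fall with LPS in KO cells. The Trnt1 (chr6:106718981-106719180) and Sco2 (chr15:89204226-89204425) stretches stand for the CpG-rich promoters that lost PU.1 signal with LPS.
Treml4: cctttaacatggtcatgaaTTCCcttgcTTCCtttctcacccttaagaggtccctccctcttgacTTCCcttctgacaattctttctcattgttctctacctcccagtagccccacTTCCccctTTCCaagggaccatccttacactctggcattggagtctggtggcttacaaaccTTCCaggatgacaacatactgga
Cd36: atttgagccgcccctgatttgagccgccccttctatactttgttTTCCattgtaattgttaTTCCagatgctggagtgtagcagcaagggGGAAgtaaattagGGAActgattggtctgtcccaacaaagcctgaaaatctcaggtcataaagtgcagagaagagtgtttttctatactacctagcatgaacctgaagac
Cenpo: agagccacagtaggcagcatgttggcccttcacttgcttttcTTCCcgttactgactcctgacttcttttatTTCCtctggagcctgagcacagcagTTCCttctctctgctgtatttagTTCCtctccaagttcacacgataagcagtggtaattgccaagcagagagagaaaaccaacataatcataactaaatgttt
Pde2a: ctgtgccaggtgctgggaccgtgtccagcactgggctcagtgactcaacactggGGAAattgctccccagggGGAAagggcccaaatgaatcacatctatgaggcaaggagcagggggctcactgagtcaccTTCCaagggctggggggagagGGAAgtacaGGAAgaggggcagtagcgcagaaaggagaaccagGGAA
Emp3: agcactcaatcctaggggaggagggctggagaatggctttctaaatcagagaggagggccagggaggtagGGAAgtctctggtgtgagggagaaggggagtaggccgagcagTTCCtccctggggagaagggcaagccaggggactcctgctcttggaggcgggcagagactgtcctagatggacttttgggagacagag
Trnt1: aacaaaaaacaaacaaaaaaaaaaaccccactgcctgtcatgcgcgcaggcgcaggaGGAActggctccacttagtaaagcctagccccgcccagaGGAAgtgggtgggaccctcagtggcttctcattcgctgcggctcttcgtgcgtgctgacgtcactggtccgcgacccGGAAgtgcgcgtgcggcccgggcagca
Sco2: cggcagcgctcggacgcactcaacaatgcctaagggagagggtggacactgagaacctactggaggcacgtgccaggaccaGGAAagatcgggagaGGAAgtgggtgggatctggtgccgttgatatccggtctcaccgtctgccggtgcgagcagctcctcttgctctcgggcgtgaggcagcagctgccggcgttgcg
The Treml4 stretch holds 6 GGAA cores and 0 CpG dinucleotides, and none of its cores is part of GAGGAA. The Cenpo stretch has 4 cores, 2 of them within GAGGAA. The Pde2a stretch has 6 cores and 3 matches to the AP-1 motif TGANTCA (counted on either strand). The Trnt1 and Sco2 stretches each hold 16 CpG dinucleotides, and the Trnt1 one is the single stretch of the 7 with a CCGGAA. The central 50 bases of each of these peaks occurred once in the assembly, with 0 further exact copies.

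The 6693 promoter peaks had 5930 nearest genes. Of these genes, 5230 had 1 promoter peak, 648 had 2 and 52 had 3 or more, up to 5. In the deposited annotation 4896 peaks were promoter-TSS, 1276 lay in introns, 233 in 5′ UTRs and 145 in exons. There were 3611 peaks upstream of the start site and 3060 downstream, and 2373 lay within 100 bp. Just inside the limit, 22 peaks lay 990 to 1000 bp from a start site with a median level of 20.3, and 25 peaks lay up to 10 bp beyond it with a median of 17.5. Levels are reads per 10000000 mapped reads after trimmed mean of M values (TMM) scaling, which assumes that most of all PU.1 peaks do not change. The median level was 22.9 over promoter peaks and 21.7 over the other peaks, and the median width was 299 and 294 bp. Promoter peaks held 12.0% to 13.5% of the reads in PU.1 peaks in each of the 8 libraries.

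The strongest promoter peaks were at genes of quite different kinds, and their levels are given as a description. The highest was at Sfi1, a gene for a centrosomal protein, 373 bp into the gene, with levels of 319 and 373 in KO cells with LPS, 392 and 421 in untreated KO cells, 367 and 359 in WT cells with LPS, and 282 and 294 in untreated WT cells. Among the others were Gm2848, AI839979 and Pira6, a paired immunoglobulin-like receptor of a family with similar members on chromosome 7. The central 50 bases of each Pira6 promoter peak occurred once in the assembly, and the rest of the peak was not searched. The list also held Cd53, a tetraspanin of leukocytes, and Cd300lf, an inhibitory receptor of myeloid cells. Cd300lf had 293 and 305 in KO cells with LPS, 281 and 288 in untreated KO cells, 291 and 258 in WT cells with LPS, and 227 and 242 in untreated WT cells. With TMM scaling, the 2 untreated WT libraries were the lowest of the 8 at both Sfi1 and Cd300lf. That scaling divides levels by 1.51 and 1.52 in untreated WT cells and by 0.695 and 0.692 in KO cells with LPS. Without these factors the untreated WT libraries were not the lowest at either peak. All 9 genes of a macrophage marker list had a promoter peak, against 0 genes of the T cell, B cell, fibroblast and epithelium lists and 1 of 5 granulocyte genes. In RNA the macrophage markers summed to 115126 to 120781 in KO cells with LPS, 127157 to 133804 in untreated KO cells, 92380 to 115974 in WT cells with LPS and 88558 to 97154 in untreated WT cells. The granulocyte list summed to 14.9 to 20.2, 2.55 to 6.73, 3.56 to 18.4 and 0 to 0.548 in the same groups, with 1 of its 5 genes in the table, and its part in the results was not tested.

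Promoter and distal peaks differed in sequence. In the central 200 bases, 42.8% of promoter peaks (2859) were CpG-rich, here meaning at least 55% G or C and an observed-to-expected CpG ratio of at least 0.6, against 0.944% of the other peaks. GAGGAAGT occurred in 15.0% of promoter peaks and 26.6% of other peaks, and CCGGAAGT in 5.59% and 0.560%. The AP-1 motif TGANTCA was present in 5.88% and 15.0%, the CCAAT box in 21.97% and 21.1%, and the GC box GGGCGG in 36.1% and 4.54%. The short core GGAA alone was in 99.7% and 99.4% of the windows. Motifs were searched on both strands, and any GAGGAAGT or CCGGAAGT also counts as a GGAA. These shares describe letters, not bound sites, and the classes were drawn up with PU.1 values in view, so that no test was made between them.

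Depth was 8096000 to 10390000 mapped reads per PU.1 library, 8649000 to 16010000 for JunB, 9793000 to 11930000 for MED1, 10230000 to 11110000 for RNA polymerase II, 12090000 to 22970000 for RNA and 4039000 to 7109000 for ATAC-seq. The 2 libraries of each ChIP-seq group differed by about sampling noise (chi-square per peak 0.877 to 0.940 for PU.1). They were therefore not taken as independently grown samples, and both values are printed without an SD. The tests still entered each library as its own observation, so adjusted p-values compare libraries rather than independently grown cells. Among RNA libraries, the fourth WT library with LPS stood apart from the other three of its group. The share of reads in PU.1 peaks was 11.7% and 11.7% in KO cells with LPS, 17.5% and 17.2% in untreated KO cells, 15.96% and 15.5% in WT cells with LPS, and 24.8% and 25.2% in untreated WT cells. TMM scaling removes this difference, so each change below is relative to the bulk of PU.1 peaks. Scaled to library totals instead, the median of all peaks was -0.55 (log2) for KO against WT without LPS, -0.42 for KO against WT with LPS, -0.57 for LPS in KO cells and -0.70 for LPS in WT cells. Gps2 RNA, the check of the knockout, was 90.3 ± 9.60 in KO cells with LPS, 132 ± 2.37 in untreated KO cells, 440.5 ± 36.7 in WT cells with LPS and 434 ± 18.4 in untreated WT cells (SD, n = 4 libraries each), and the part deleted by CRISPR is not given in the sources used here. RNA of Spi1, the gene for PU.1, fell in KO cells by 0.64 (log2) without LPS (limma, adjusted p = 2.11e-06) and by 0.53 with LPS (adjusted p = 1.39e-05).

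The first comparison asks where loss of GPS2 changes PU.1 at promoters of resting cells. In untreated KO cells PU.1 rose at 288 promoter peaks and fell at 81 relative to untreated WT cells, out of 6686 tested. Over all PU.1 peaks, 4.85% were called higher and 3.04% lower, against 4.31% and 1.21% of promoter peaks, so promoter peaks were called lower less often than peaks in general, a difference that was described and not tested. The median change of promoter peaks was 0.05 (log2), against 0.01 over all peaks. The calls depended on the scaling: on library totals 10 promoter peaks were higher and 2825 lower. They also rested on having both libraries, with 100 higher without the first untreated WT library and 14 lower without the first untreated KO library.

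Largest changes are named here among called peaks with a mean of at least 30 reads and no overlap between the libraries compared. Receptor genes of the TREM family were among the peaks that rose. TREM receptors are surface molecules of myeloid cells that tune inflammatory signals. At Treml4, a receptor that binds dying cells, PU.1 was 51.6 and 57.0 in untreated KO cells, against 25.6 and 31.02 in untreated WT cells. The groups did not overlap, and the change was 0.95 ± 0.20 (log2, SE; limma with voom weights, adjusted p = 0.000238 over all peaks). At the neighbouring Trem3 promoter, 34 bp upstream of the start site, the values were 89.5 and 103 in untreated KO cells and 62.9 and 65.1 in untreated WT cells, a change of 0.58 ± 0.13 (adjusted p = 0.00108). Another gene of the same cluster, Trem2, a receptor for lipids and cell debris, had 43.2 and 41.3 in untreated KO cells and 29.5 and 19.7 in untreated WT cells (change 0.79, adjusted p = 0.0116). These 3 peaks lie within the same stretch of chromosome 17, and in each the untreated KO libraries were both above the untreated WT libraries. Scaled to library totals, the calls were lost at Treml4 (0.39), Trem3 (0.024) and Trem2 (0.23). The Trem3 call was also lost without the second untreated KO library (0.49), and the Trem2 call without the first (0.75) or second (0.82) untreated KO library or the second untreated WT library (0.52), or with a pseudocount of 1 and no weights (0.78).

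Other peaks that rose were at genes of varied roles. The largest change was at Crem, a cAMP-responsive transcription factor, with 47.4 and 63.1 in untreated KO cells against 19.7 and 24.2 in untreated WT cells, and a change of 1.31 ± 0.22 (adjusted p = 4.91e-07). Gm9733, a predicted gene, followed with 57.9 and 67.9 against 26.9 and 31.8 and a change of 1.098 ± 0.19. At both peaks each untreated KO library lay above each untreated WT library. Arid5a, an RNA-binding protein that stabilises Il6 mRNA, had 43.2 and 52.2 in untreated KO cells and 24.9 and 26.5 in untreated WT cells (change 0.88, adjusted p = 0.00209). Ift57, an intraflagellar transport protein, the semaphorin Sema4c, the splicing regulator Mbnl1 and the Elongator subunit Elp2 rose by 0.92, 0.81, 0.80 and 0.86 (log2). Of the macrophage identity list, with 23 promoter peaks at 19 of its 26 genes, 4 rose and 0 fell, with a median of 0.06, where 4.31% of all promoter peaks rose and 1.21% fell with a median of 0.05. They included Tfec, a macrophage-restricted factor of the MiT family, with 44.2 and 52.2 in untreated KO cells against 30.1 and 27.2 in untreated WT cells. With library totals, the calls at Crem (0.76) and Gm9733 (0.54) held, while those at Arid5a (0.32), Ift57 (0.36), Sema4c (0.247), Mbnl1 (0.245), Elp2 (0.31) and Tfec (0.17) were lost. Calls were also lost without the first untreated KO library at Ift57 (0.75), Sema4c (0.77) and Mbnl1 (0.59), without the second at Arid5a (0.76) and Tfec (0.625), without the first untreated WT library at Arid5a (0.82), Sema4c (0.76), Mbnl1 (0.705) and Tfec (0.80), and without the second at Tfec (0.66). Without weights, a pseudocount of 1 ended the calls at Sema4c (0.78) and Mbnl1 (0.76), and one of 5 that at Sema4c (0.69).

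The largest fall by that rule was at Cd36, a scavenger receptor that takes up oxidised lipoproteins and fatty acids. It had 10.5 and 15.8 in untreated KO cells, against 43.9 and 36.3 in untreated WT cells, a change of -1.62 ± 0.32 (adjusted p = 5.23e-05). In cells with LPS the Cd36 peak was 30.5 and 29.2 in KO cells and 55.8 and 42.4 in WT cells, so that the KO libraries were the lower ones again, although that difference missed the threshold (-0.67, adjusted p = 0.0717). Rufy1, an endosomal adaptor, had 10.5 and 23.1 in untreated KO cells and 35.4 and 32.5 in untreated WT cells (change -1.13, adjusted p = 0.00452). Ankrd37, a hypoxia-induced ankyrin-repeat protein, had 43.2 and 38.8 against 85.9 and 69.6, a change of -0.91 ± 0.18 (adjusted p = 4.17e-05). The orphan receptor Gprc5c, Gm15663, Tnrc18, Shld1 and the oocyte linker histone H1foo completed the 8 largest falls, between -0.89 and -1.01. By limma with voom weights, 0 of 12 peaks at interferon-stimulated genes and 0 of 22 at chemokines and cytokines were called. By the same test an unadjusted p under 0.05 was reached by 2 and 4. Over all promoter peaks 4.31% were higher and 1.21% lower, so sets of this size give few calls. Of 19 peaks at NF-kB signalling genes 1 was higher, at Rel, a subunit of NF-kB itself. That call was lost without the first untreated KO library (0.48) or the second untreated WT library (0.44), and on library totals the Rel change turned to -0.0577. Among the falls, calls were lost without the first untreated KO library at Rufy1 (-0.54), Tnrc18 (-0.74), Gprc5c (-1.25), Gm15663 (-1.01), Shld1 (-1.01) and H1foo (-0.78), without the second at Gprc5c (-0.80), Gm15663 (-0.98), Shld1 (-0.82) and H1foo (-0.98), without the first untreated WT library at Gm15663 (-0.87), Shld1 (-0.76) and H1foo (-0.52), and without the second at Gprc5c (-0.89). The H1foo call was also lost with a pseudocount of 1 and no weights (-0.85).

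**Figure D1:**
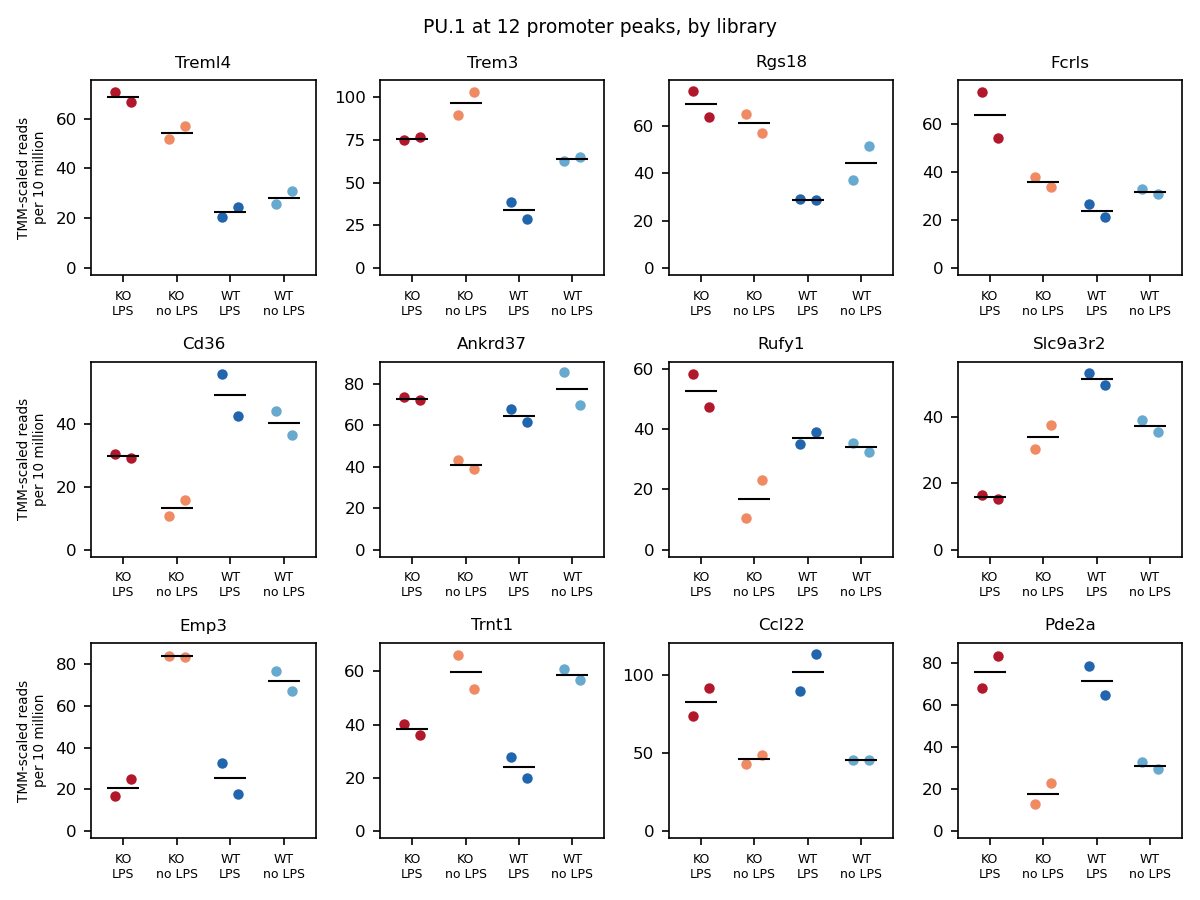
PU.1 level (TMM-scaled reads per 10000000 mapped reads, linear axis from 0) at 12 promoter peaks. Each point is 1 library and each line the mean of 2, with KO cells left of WT cells and LPS left of no LPS. In Treml4, Trem3 and Rgs18 all KO libraries lie above all WT libraries with the same treatment, and in Emp3 all libraries with LPS lie below all untreated ones.

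The second comparison sets KO against WT cells after 2 hours of LPS. PU.1 was higher in KO cells at 112 promoter peaks and lower at 133. Over all peaks 4.95% were higher and 3.64% lower, against 1.68% and 1.99% of promoter peaks. The median promoter change was -0.03. On library totals the split was 22 higher and 1528 lower, and the counts fell to 21 higher without the second WT library with LPS and to 26 lower without the second KO library with LPS. The comparisons with and without LPS share no library. Called higher in both were 18 peaks, which is 6.25% of the 288 without LPS and 16.1% of the 112 with LPS, where 1.68% of all promoter peaks were higher with LPS and 4.31% without. Called lower in both were 5 (6.17% of 81 and 3.76% of 133, where 1.99% were lower with LPS and 1.21% without), while 6 were higher without LPS and lower with it, and 6 the reverse.

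The largest rise by the same rule was at Treml4. It had 70.7 and 66.7 in KO cells with LPS, against 20.6 and 24.4 in WT cells with LPS, a change of 1.59 ± 0.25 (adjusted p = 1.95e-07). Trem3 had 74.9 and 76.5 against 38.8 and 28.6 (1.19 ± 0.22, adjusted p = 8.38e-06). At Trem2 the order was the opposite, with 27.7 and 26.4 in KO cells with LPS and 46.1 and 42.4 in WT cells with LPS, though the change missed the threshold (-0.68, adjusted p = 0.0840). Fcrls, a scavenger receptor known from microglia, had 73.5 and 54.2 in KO cells with LPS and 26.7 and 21.2 in WT cells with LPS (1.40 ± 0.25, adjusted p = 5.87e-06). Rgs18, a regulator of G-protein signalling in blood cells, had 74.9 and 64.0 against 29.1 and 28.6 (1.25 ± 0.23). At Treml4, Trem3, Fcrls and Rgs18 both KO libraries with LPS exceeded both WT libraries with LPS.

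The strongest peak in this group was at Fbp2, a fructose-bisphosphatase of gluconeogenesis, 929 bp upstream of its start. It had 153 and 179 in KO cells with LPS, 66.3 and 87.4 in untreated KO cells, 66.7 and 61.4 in WT cells with LPS, and 73.4 and 77.2 in untreated WT cells. With TMM scaling the KO libraries with LPS stood apart from the other 6, and KO against WT with LPS gave 1.37 ± 0.15 (adjusted p = 9.00e-17). On library totals that call held (0.95), but the KO libraries with LPS overlapped the untreated WT libraries. At the Tnf promoter, 818 bp into the gene, PU.1 was 65.2 and 40.3 in KO cells with LPS and 30.3 and 26.5 in WT cells with LPS, and this was the 1 called peak of the 22 in the chemokine and cytokine list. Over all promoter peaks 1.68% were higher and 1.99% lower in this comparison. The Tnf call was lost on library totals (0.44), without the first KO library with LPS (0.51) and without the first (0.94) or second (0.75) WT library with LPS.

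Among the peaks that were lower in KO cells with LPS, Cenpo, a kinetochore protein, led. It had 12.5 and 9.73 in KO cells with LPS, 31.6 and 34.0 in untreated KO cells, 41.2 and 42.4 in WT cells with LPS and 34.1 and 32.5 in untreated WT cells. Only the KO libraries with LPS were low, and KO against WT with LPS gave -1.85 ± 0.41 (adjusted p = 0.000436). At 986 bp from the start site this peak is near the limit of the definition. The scaffold Slc9a3r2 had 16.6 and 15.3 in KO cells with LPS against 53.3 and 49.8 in WT cells with LPS (-1.64 ± 0.32, adjusted p = 5.85e-05). Plcl2, a phospholipase C-like protein, had 26.4 and 18.1 against 52.1 and 59.3 (-1.32 ± 0.28). The ETS factor Etv1, the cation channel Trpv2, the SMC5/6 subunit Nsmce4a and the ubiquitin ligase receptor Dcaf1 fell by 1.15, 1.13, 1.05 and 1.04 (log2). Mpeg1, the pore-forming perforin-2 of macrophages, had 133 and 128 in KO cells with LPS and 199 and 188 in WT cells with LPS. It was the 1 called peak of the 23 in the macrophage identity list, where 1.68% of all promoter peaks were higher and 1.99% lower. Calls were lost without the first KO library with LPS at Trpv2 (-1.26) and Dcaf1 (-0.79), without the second at Etv1 (-0.37) and Trpv2 (-0.99), without the first WT library with LPS at Trpv2 (-0.90) and without the second at Dcaf1 (-0.97).

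The LPS comparisons ask how PU.1 at promoters moves within 2 hours of activation. In KO cells 391 promoter peaks rose and 648 fell with LPS. In WT cells 546 rose and 478 fell. Over all PU.1 peaks, 11% rose and 7.84% fell in KO cells, against 5.85% and 9.69% of promoter peaks. The share over all peaks in WT cells was 11.4% higher and 7.21% lower, against 8.17% and 7.15% of promoter peaks. Median promoter changes were -0.14 in KO cells and -0.07 in WT cells, where the other peaks had 0.03 and 0.02. On library totals 89 rose and 3234 fell in KO cells, and 40 rose and 4369 fell in WT cells, because the median of all peaks moves down on that scale. The lowest counts with 1 library left out were 152 higher without the first untreated KO library, 247 lower without the first KO library with LPS, 270 higher without the first untreated WT library and 94 lower without the second WT library with LPS. The 2 responses share no library: 150 peaks rose in both (38.4% of those in KO cells, 27.5% of those in WT cells) and 159 fell in both (24.5% and 33.3%), while 14 rose in WT cells and fell in KO cells and 5 did the opposite.

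**Figure D2:**
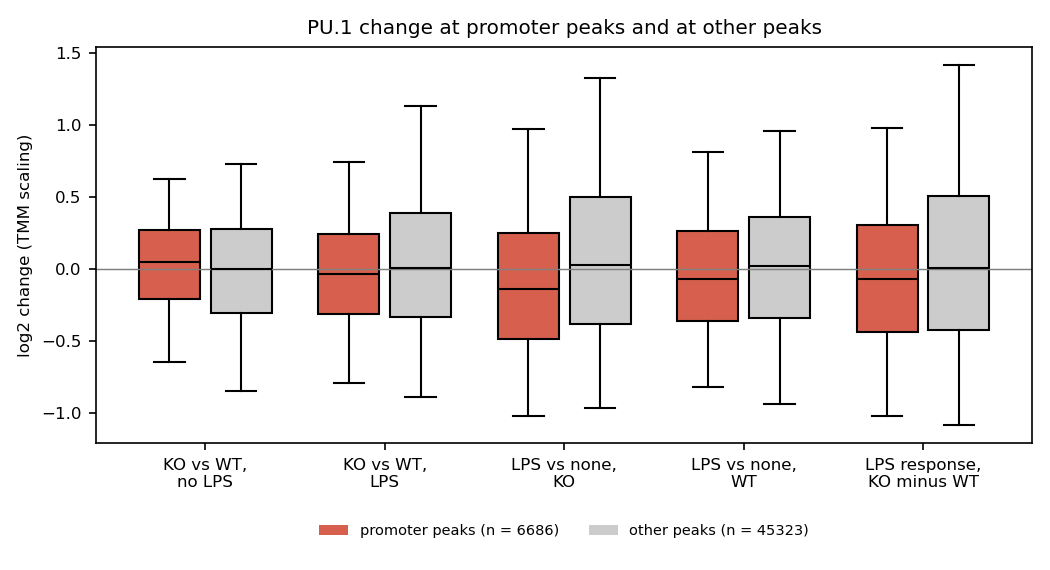
Log2 change of PU.1 (TMM scaling) at 6686 promoter peaks (red) and 45323 other peaks (grey) in 5 comparisons. Boxes show the quartiles with the median, and whiskers the 5th and 95th percentiles. Promoter medians lie below those of other peaks for LPS in KO cells (-0.14 and 0.03) and in WT cells (-0.07 and 0.02), and above for KO against WT without LPS (0.05 and 0.00).

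The calls with LPS were also counted by position and CpG content, as a description. Of peaks within 50 bp of a start site, 49 rose and 200 fell in KO cells, and 64 rose and 178 fell in WT cells (1489 tested). Of peaks more than 500 bp away, 135 rose and 140 fell in KO cells, and 14.2% rose and 3.22% fell in WT cells (1862 tested). In this outer bin the LPS response of KO cells was below that of WT cells at 99 peaks (5.32%) and above at 25 (1.34%), by the test of the difference itself. The shares were 3.16% below and 1.63% above over all promoter peaks, and 3.99% and 4.18% over all PU.1 peaks. On library totals the counts over all promoter peaks turned to 102 below and 184 above. CpG-rich promoter peaks gave 71 higher and 316 lower in KO cells and 81 higher and 313 lower in WT cells (2857 tested, median -0.24 in both). CpG-poor ones gave 320 and 330 in KO cells and 465 and 163 in WT cells (3821 tested, medians -0.07 and 0.07). Within the innermost bin, 14 CpG-rich peaks rose and 138 fell in KO cells (14.3% lower of 966), against 35 and 62 CpG-poor ones (11.9% lower of 523). In WT cells 9 CpG-rich peaks rose and 139 fell (14.4% lower), against 55 and 39 CpG-poor ones (7.46% lower). On library totals the WT medians were -0.95 for CpG-rich and -0.64 for CpG-poor peaks, and the KO medians -0.81 and -0.64. CpG-rich peaks are also nearer to start sites (median 93 bp against 388 bp), and the part of the lower share of reads in peaks after LPS was not tested.

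**Figure D3:**
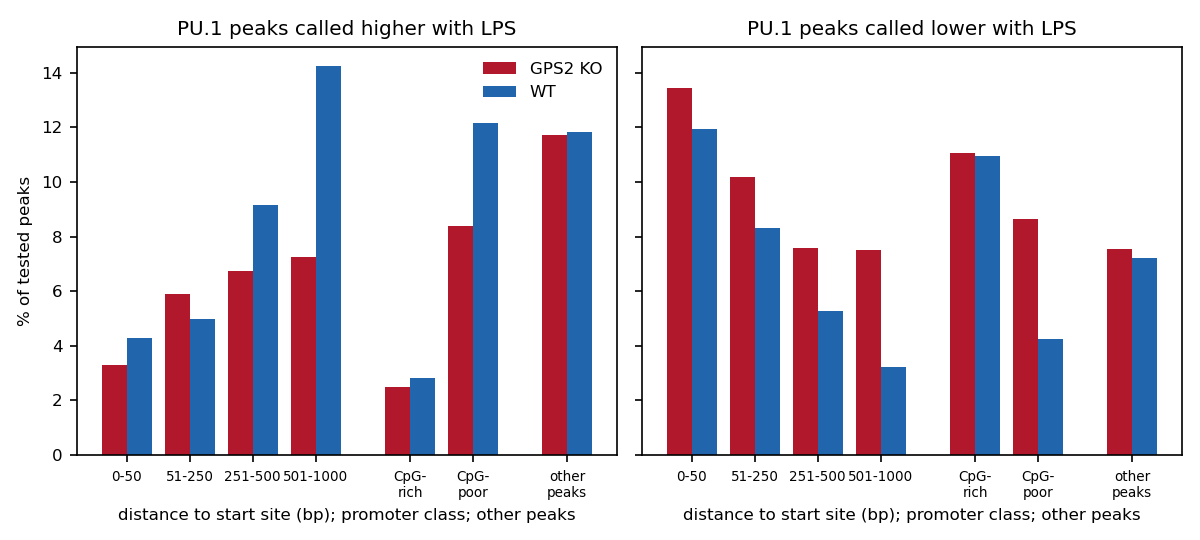
Percent of tested PU.1 peaks called higher (left) and lower (right) with LPS in GPS2 KO cells (red) and WT cells (blue), for promoter peaks by distance to the start site, for CpG-rich and CpG-poor promoter peaks, and for all other peaks. The share called higher is 7.25% in KO cells and 14.2% in WT cells beyond 500 bp, and 3.29% and 4.30% within 50 bp.

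Motif classes were counted in the same way, as a description. Promoter peaks with CCGGAAGT and no GAGGAAGT (342 tested) had 3 higher and 47 lower with LPS in KO cells and 4 higher and 47 lower in WT cells (13.7% lower in each), and 81.6% of the peaks with that motif were CpG-rich. Without LPS the same class had 18 peaks higher (5.26%) and 0 lower in KO against WT cells. The class with GAGGAAGT only had 85 higher (8.78%) and 15 lower, where 4.31% of all promoter peaks were higher. Peaks with GAGGAAGT were stronger (median level 32.9 against 22.9 over all promoter peaks), and stronger peaks were called more often. By level, 0.840% of the weakest group of promoter peaks (1667 tested) and 10.3% of the strongest (1673) were higher. At 1.5-fold or more, 30 of 968 peaks with GAGGAAGT only and 157 of all 6686 were higher. Outside promoters 7.49% of that class were higher, against 4.93% of all. The part of peak level in the counts of this class was not tested. Promoter peaks with GAGGAAGT only (968 tested) had 78 higher and 149 lower (15.4%) with LPS in KO cells, and 107 higher and 78 lower (8.06%) in WT cells. CpG-rich promoter peaks with GAGGAAGT (250 tested) had 12 higher and 45 lower in KO cells, and 13 higher and 39 lower in WT cells. Those with the AP-1 motif TGANTCA (392 tested) had 49 higher and 17 lower in KO cells, and 84 higher and 10 lower in WT cells, which is 21.4% higher in WT cells against 7.35% of promoter peaks without it. Outside promoters, 19.6% of peaks with TGANTCA rose in WT cells and 10.5% of those without it.

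Immune effector promoters were among those that gained PU.1 with LPS. Ccl22, a chemokine that attracts regulatory T cells, had 73.5 and 91.8 in KO cells with LPS and 43.2 and 48.5 in untreated KO cells, and 89.7 and 113 in WT cells with LPS and 45.2 and 45.4 in untreated WT cells. With TMM scaling all 4 libraries with LPS lay above all 4 untreated ones. The changes were 0.84 ± 0.19 in KO cells (adjusted p = 0.000287) and 1.17 ± 0.15 in WT cells (adjusted p = 1.54e-12), by limma with voom weights. On library totals the KO change was not called (0.28), and the KO libraries with LPS lay below the untreated WT libraries. Of the chemokine and cytokine list, 5 of 22 peaks rose in KO cells and 8 in WT cells with 0 lower in either, and the medians were 0.46 and 0.37. Pattern recognition and Fc receptors had 5 of 20 higher in KO cells and 7 in WT cells, with 0 lower. Over all promoter peaks 5.85% rose and 9.69% fell in KO cells, and 8.17% rose and 7.15% fell in WT cells. NF-kB signalling genes had 3 higher and 2 lower of 19 in KO cells, and 4 higher and 1 lower in WT cells.

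Among the largest gains, Pde2a, a phosphodiesterase of cAMP and cGMP, had 68.0 and 83.4 in KO cells with LPS, 12.6 and 23.1 in untreated KO cells, 78.8 and 64.6 in WT cells with LPS, and 32.8 and 29.5 in untreated WT cells. Its changes were 2.14 ± 0.28 in KO cells (adjusted p = 1.06e-11) and 1.18 ± 0.18 in WT cells (adjusted p = 1.68e-08), and the untreated KO libraries were the lowest. Itgax, the integrin CD11c, had 49.9 and 57.0 in KO cells with LPS, 34.7 and 36.4 in untreated KO cells, 58.2 and 74.1 in WT cells with LPS, and 34.1 and 25.7 in untreated WT cells. Its change was called in WT cells (1.14, adjusted p = 1.59e-07) and missed the threshold in KO cells (0.58, adjusted p = 0.0534), and the difference between them was not called (adjusted p = 0.249). Smim3, Synj2, Ereg (the growth factor epiregulin) and the phosphofructokinase Pfkp rose in WT cells by 1.89, 1.21, 1.17 and 1.13 (log2). In KO cells, Cebpg, a bZIP partner of the stress response, and Rgs3 rose by 1.57 and 1.55. The Pfkp call was lost on library totals (0.41).

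The largest losses of PU.1 with LPS were at promoters of genes with varied roles. Of the 8 well-covered peaks with the largest falls, 4 were CpG-rich in KO cells and 6 in WT cells, where 42.8% of all promoter peaks were CpG-rich. Emp3, a small membrane protein, lost most among well-covered peaks. It had 16.6 and 25.03 in KO cells with LPS, 84.2 and 83.7 in untreated KO cells, 32.7 and 18.004 in WT cells with LPS, and 76.7 and 67.3 in untreated WT cells. All libraries with LPS were below all untreated ones, with changes of -2.00 ± 0.27 in KO cells (adjusted p = 1.17e-10) and -1.58 ± 0.22 in WT cells (adjusted p = 4.77e-10). Trnt1, the enzyme that adds CCA to tRNA, had 40.2 and 36.2 in KO cells with LPS and 66.3 and 53.4 in untreated KO cells, and 27.9 and 20.1 in WT cells with LPS and 60.9 and 56.8 in untreated WT cells. Its call in KO cells (-0.64) was lost without the first untreated KO library (-0.47) or without the first (-0.72) or second (-0.58) KO library with LPS. Sco2, a copper chaperone for cytochrome oxidase, had 12.5 and 19.5 in KO cells with LPS against 52.6 and 58.2 in untreated KO cells (-1.77), and 20.6 and 29.7 in WT cells with LPS against 45.2 and 59.8 in untreated WT cells (-1.01). The ribosome assembly GTPase Gtpbp4 fell by 1.29 in WT cells, and the Arp2/3 subunits Arpc2 and Arpc5l fell by 1.64 (KO) and 1.27 (WT). The Arpc5l call was lost without the second WT library with LPS (-0.93). Of 28 peaks at cytosolic ribosomal protein genes, 3 fell in KO cells (Rpl27 by 1.65) and 5 in WT cells, with 0 higher and medians of -0.38 and -0.29, where 9.69% of all promoter peaks fell in KO cells and 7.15% in WT cells. Of 15 peaks at oxidative phosphorylation genes, 3 fell and 0 rose in KO cells, and 0 fell and 2 rose in WT cells. Interferon-stimulated genes, with 12 peaks, had 0 called in either genotype by limma with voom weights, and 0 in KO cells and 1 in WT cells reached an unadjusted p under 0.05. Over all promoter peaks 5.85% rose in KO cells and 8.17% in WT cells.

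The test of the difference between the LPS responses (KO minus WT) called 109 promoter peaks higher (1.63%) and 211 lower (3.16%), against 4.18% and 3.99% of all peaks. Among well-covered peaks the largest negative difference was at Crem (-1.95 ± 0.35, adjusted p = 5.84e-06), which had 24.97 and 26.4 in KO cells with LPS against 47.4 and 63.1 in untreated KO cells, while WT cells had 44.9 and 37.1 with LPS and 19.7 and 24.2 untreated. PU.1 at Crem thus fell with LPS in KO cells and rose in WT cells. Cenpo, Plcl2 and Ppp1r18 followed, at -1.83, -1.77 and -1.54. Positive differences led with Mir7649 (1.94), Rufy1 (1.63), Gm15663 (1.59) and Tnrc18 (1.53). At Rufy1 the KO libraries had 58.3 and 47.3 with LPS and 10.5 and 23.1 untreated, whereas the WT libraries had 35.2 and 39.2 with LPS and 35.4 and 32.5 untreated. The difference was no longer called at Rufy1 without the first untreated KO library (1.032) and at Cenpo without the second KO library with LPS (-1.67). On library totals the interaction counts turned to 184 higher and 102 lower, as the median of all peaks moved to 0.14.

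RNA of the nearest genes was read 6 hours after LPS, against 2 hours for PU.1. Of the 5930 nearest genes, 5525 were in the RNA table and 5141 were tested. Without LPS, RNA was higher in KO cells for 975 of them and lower for 905, against 18% and 17.5% over all genes. With LPS the counts were 1184 and 1181 (22.1% and 22.1% over all genes). With LPS in KO cells 1835 rose and 1725 fell (31.5% and 36.1% over all genes), and in WT cells 1970 rose and 1703 fell (34.2% and 36.2%). The test of the difference between these responses (KO minus WT) was positive for 530 of the genes and negative for 580, against 10.2% and 10.4% of all genes. With library totals, the LPS counts became 979 higher and 2824 lower in KO cells and 959 higher and 2956 lower in WT cells. There the median of all genes moved to -0.43 in KO cells and -0.48 in WT cells. Without the fourth WT library with LPS, the untreated comparison of KO with WT cells gave 1558 higher and 1604 lower (30.2% and 31.1%). Genes without a promoter peak gave 28.3% and 28.7% there. The difference of the responses gave 1078 positive and 1042 negative (20.9% and 20.2%), against 19.4% and 17.7% of genes without a promoter peak. In this fit all 4 groups share 1 estimate of the spread. Among 249 tested genes with a PU.1 peak that was higher in untreated KO cells, RNA was higher for 72 and lower for 28, and among 54 with a lower peak it was higher for 9 and lower for 15. Where no PU.1 peak was called, 18.5% of genes were higher and 17.8% lower. Leaving out that library, the same counts were 102 and 62 (40.6% and 24.7%), and 12 and 20 (21.8% and 36.4%). Without that library, 29.7% of genes were higher and 31.3% lower where no PU.1 peak was called. With LPS in WT cells, genes whose promoter peak rose had RNA higher for 201 and lower for 117 of 435, and genes whose peak fell had 161 higher and 121 lower of 410, against 37.5% higher and 34.0% lower without a call. In KO cells RNA was higher for 123 and lower for 99 of 292 genes with a rising peak, and higher for 199 and lower for 203 of 577 with a falling peak, against 35.4% higher and 33.3% lower without a call. For KO against WT cells with LPS, RNA was higher for 21 and lower for 9 of 70 genes with a higher peak, and higher for 27 and lower for 31 of 114 with a lower peak, against 22.9% and 23.02% without a call. These are counts side by side, and no test of association was made.

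Individual genes showed PU.1 and RNA moving both together and apart, and the genes were picked from the named peaks with values in view. Cd36 RNA was 1770 ± 87.5 in KO cells with LPS, 104 ± 15.0 in untreated KO cells, 6517 ± 1076 in WT cells with LPS and 2104 ± 104 in untreated WT cells (SD, n = 4 libraries each). Its change in KO cells was -4.33 (log2 of value plus 1) without LPS (limma, adjusted p = 1.69e-13) and -1.87 with LPS (adjusted p = 3.52e-09). Trem3 RNA was 120 ± 5.06 in KO cells with LPS, 141 ± 8.41 in untreated KO cells, 8.30 ± 3.87 in WT cells with LPS and 5.66 ± 1.33 in untreated WT cells, and rose in KO cells by 4.44 without and 3.78 with LPS. Treml4 RNA was low throughout, at 8.27 to 12.4 in KO cells with LPS, 14.6 to 15.4 in untreated KO cells, 0 to 2.54 in WT cells with LPS and 0 to 0.548 in untreated WT cells, with no overlap between genotypes. Rgs18 RNA was 14.3 to 29.9 in KO cells with LPS and 0.712 to 2.64 in WT cells with LPS.

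Tnf RNA reached 24932 ± 120 in KO cells with LPS, against 9472 ± 198 in WT cells with LPS (change 1.40, adjusted p = 6.79e-12). In untreated cells it was 708 ± 21.8 in KO and 375 ± 23.2 in WT cells. The Emp3 promoter is a case of opposite direction: its RNA rose with LPS by 0.42 in KO cells (adjusted p = 0.00576) and 0.70 in WT cells (adjusted p = 8.57e-05), while its PU.1 peak fell in both. These RNA changes were 0.03 in KO cells and 0.23 in WT cells on library totals, and were not called there. Gtpbp4 RNA likewise rose by 0.96 in KO and 1.01 in WT cells. Arid5a RNA was 220 ± 6.31 in KO cells with LPS and 551 ± 22.9 in WT cells with LPS, but 83.0 ± 6.06 in untreated KO and 22.5 ± 1.45 in untreated WT cells, so the KO change was positive without LPS (1.84) and negative with it (-1.32). Of the 8 genes whose promoter peaks rose most in untreated KO cells, RNA was higher for 5 and lower for 0. Of the 8 whose peaks fell most, 5 were tested and RNA was lower for 3 and higher for 0. Over all genes 18% were higher and 17.5% lower in that comparison. With LPS, the 8 genes whose peaks rose most had RNA higher for 1 and lower for 2 of 5 tested in KO cells, and higher for 3 and lower for 1 of 6 in WT cells. Those whose peaks fell most had RNA higher for 5 and lower for 2 of 7 in KO cells, and higher for 4 and lower for 0 of 7 in WT cells. Over all genes 31.5% rose and 36.1% fell with LPS in KO cells, and 34.2% rose and 36.2% fell in WT cells. For KO against WT cells with LPS, RNA was higher for 4 and lower for 0 of 4 tested among the rises, and higher for 1 and lower for 4 of 8 among the falls. Over all genes 22.1% were higher and 22.1% lower there. These sets are small, and no test of association was made.

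**Figure D4:**
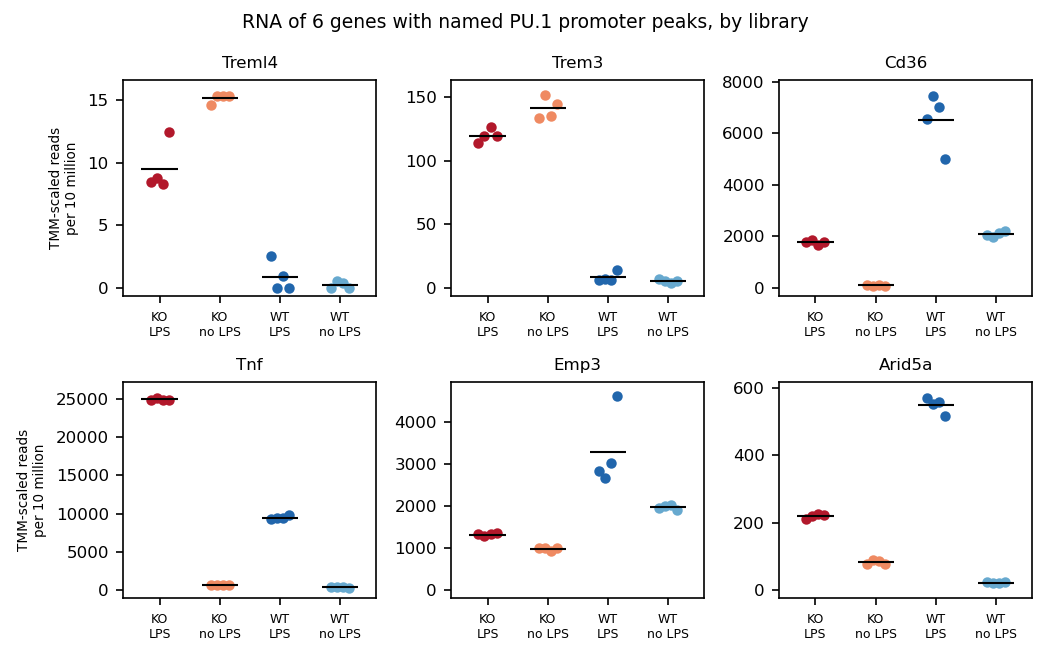
RNA level (TMM-scaled reads per 10000000 mapped reads, linear axis from 0) of 6 genes with named PU.1 promoter peaks. Each point is 1 library and each line the mean of 4, with KO cells left of WT cells and LPS left of no LPS. Treml4 and Trem3 are higher in all KO libraries, Cd36 is lower in KO cells at either treatment, and Arid5a is higher in KO cells only without LPS.

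JunB regions overlapped 3208 promoter peaks (47.9%), forming 3214 tested regions. In untreated KO cells JunB was higher at 1119 of these (34.8%) and lower at 18, where 6.28% of all JunB regions were higher and 2.16% lower. The median change was 0.77 (log2). At CpG-rich promoter peaks JunB was higher at 862 of 1571 regions and lower at 0, with a median of 1.097, against 257 and 18 of 1643 at CpG-poor ones (median 0.34). JunB regions without a PU.1 promoter peak had a median of -0.04. On library totals 630 regions were higher and 88 lower (median 0.47). Of these, the CpG-rich class had 505 higher and 2 lower with a median of 0.79. The CpG-poor class had 125 higher and 86 lower with a median of 0.05. Regions without a PU.1 promoter peak had 1305 higher and 4567 lower of 55596 on that scale, with a median of -0.34. The level itself was thus higher on library totals at the CpG-rich class and not clearly at the CpG-poor one. Both class medians stayed above that of the other regions. The counts were 350 and 368 higher without the first or the second untreated WT library, and 579 without the first untreated KO library. The Trnt1 promoter is an example, with JunB at 32.1 and 38.1 in untreated KO cells and 11.0 and 5.56 in untreated WT cells (2.04 ± 0.48, adjusted p = 0.00200), a call lost without the second untreated WT library (1.63).

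With LPS, JunB at PU.1 promoter peaks was higher in KO than in WT cells at 206 regions and lower at 229, where 14.6% and 14.5% of all JunB regions were called. The LPS response itself, relative to all JunB regions, was lower at 2092 and higher at 75 of the 3214 regions in KO cells (19.9% lower and 14.8% higher over all regions). In WT cells it was lower at 1139 and higher at 176 (21.5% and 17.3% over all regions). This direction flips with the scaling: on library totals 2046 were higher and 47 lower in KO cells and 2982 higher and 0 lower in WT cells, since the median of all regions then rises by 2.22 and 2.02. JunB reads in regions made up 26.4% and 25.2% of reads in KO cells with LPS, 5.79% and 6.01% in untreated KO cells, 28.8% and 29.2% in WT cells with LPS, and 6.91% and 7.51% in untreated WT cells. The medians at promoters were -1.18 in KO cells and -0.52 in WT cells with TMM scaling. With library totals they were 1.01 in KO cells, against 2.22 over all regions, and 1.52 in WT cells, against 2.02 over all regions, and the change of scale moves promoter and other regions by about the same amount. The difference of the responses (KO minus WT) was negative at 487 regions and positive at 11, against 3.36% and 1.84% over all regions.

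**Figure D5:**
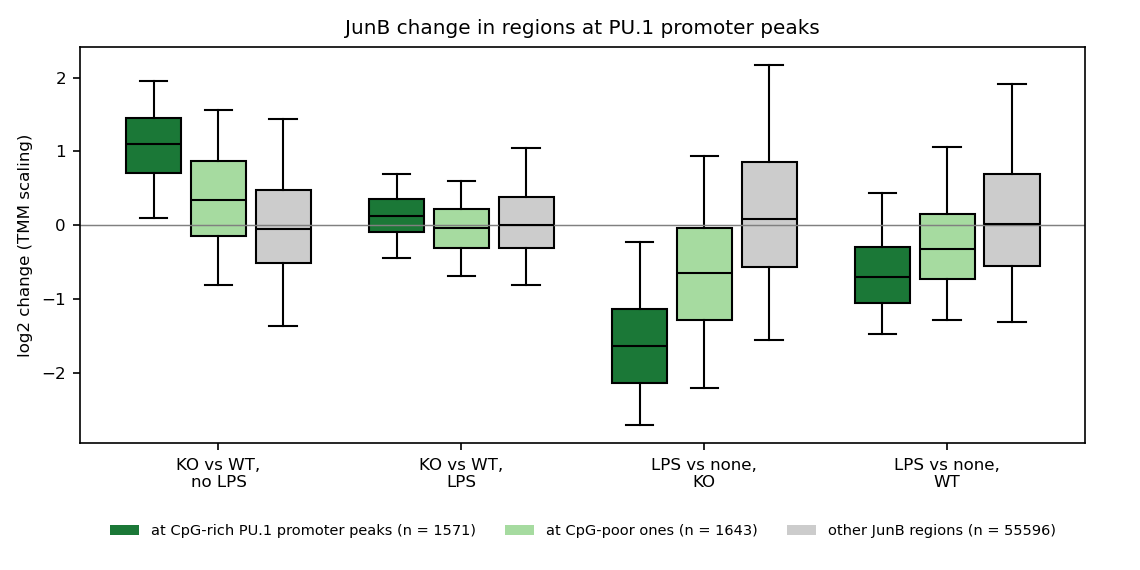
Log2 change of JunB (TMM scaling) in JunB regions at CpG-rich PU.1 promoter peaks (1571, dark green), at CpG-poor ones (1643, light green) and elsewhere (55596, grey). Boxes show quartiles with the median, and whiskers the 5th and 95th percentiles. The CpG-rich regions have medians of 1.097 for KO against WT without LPS, -1.63 for LPS in KO cells and -0.69 for LPS in WT cells, of which the LPS medians turn positive on library totals.

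MED1 and RNA polymerase II were measured with LPS only. MED1 regions overlapped 5589 promoter peaks (83.5%), and 213 of 4928 regions were higher and 115 lower in KO cells with LPS, against 5.17% and 1.92% over all MED1 regions. Polymerase regions overlapped 5818 (86.9%), with 1107 of 5025 higher and 1645 lower in KO cells with LPS (24.2% and 20.1% over all regions) and a median of -0.16. On library totals the counts were 4 higher and 4105 lower for MED1 and 55 higher and 4904 lower for polymerase. The medians of all regions then stood at -0.77 and -1.88. Reads in regions were 8.81% and 8.92% in KO cells and 14.6% and 14.6% in WT cells for MED1, and 14.2% and 14.4% in KO cells against 46.4% and 45.0% in WT cells for polymerase. At the Trem3 promoter MED1 was 23.99 and 19.6 in KO cells with LPS, against 5.46 and 6.96 in WT cells with LPS (1.76 ± 0.42, adjusted p = 0.00357), a call lost without the first (1.59) or second (1.92) WT library. At the Pde2a region polymerase was 142 and 142 in KO cells and 81.0 and 83.2 in WT cells with LPS (0.79 ± 0.14), and at the Emp3 region 944 and 908 against 669 and 679 (0.46 ± 0.06). Both polymerase changes turn negative on library totals, at -1.09 and -1.43.

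Open chromatin covered nearly all promoter peaks. ATAC regions overlapped 6298 of them (94.1%), and in untreated KO cells 130 of 5674 regions were higher and 162 lower than in control cells, against 4.04% and 3.16% over all ATAC regions. Where the PU.1 peak was higher in untreated KO cells, 23 of 277 ATAC regions were higher and 5 lower, and where it was lower, 1 was higher and 15 lower of 75. Where PU.1 was not called, 110 were higher and 143 lower of 5384. ATAC values at Trem3 were 5.51, 5.49 and 5.28 in KO cells and 5.11, 4.95 and 5.07 in control cells on the deposited log2 scale, with no overlap (0.38 ± 0.08, limma, adjusted p = 0.000342). At Treml4 they were 4.63, 4.81 and 4.89 in KO cells against 4.30, 4.45 and 4.45 in control cells (0.38 ± 0.08, adjusted p = 0.000153). The Cd36 promoter, by contrast, had 1.87, 1.89 and 1.91 in KO cells and 2.06, 1.95 and 1.97 in control cells. It was lower in all 3 KO libraries, with a change of -0.10 ± 0.04 that missed the threshold (limma, adjusted p = 0.0871). These values lay far below those at Trem3 and Treml4, so this small difference was read from a region with little ATAC signal.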

How the data were processed

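The series holds 247 samples, of which the PU.1, JunB, MED1 and RNA polymerase II ChIP-seq, RNA-seq and ATAC-seq tables of GPS2 KO and WT cells were used. Per the file headers, the authors deposited ChIP-seq and RNA values as reads normalised to 10000000 mapped reads (not raw counts), in mm9, and ATAC-seq values as log2 values. The submitters' processing notes name Bowtie2, BWA, HISAT2, HOMER, MACS2, DESeq2 and edgeR, and their roles and versions are not given in the sources used here. ChIP cells were crosslinked with a protein crosslinker and formaldehyde, per the labels' protocols. Whole reads were recovered from the deposited values (all values up to 200 reads within 0.05 of a whole read).

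Columns were assigned to samples by name, and 8 numeric columns were not used. PU.1, JunB, MED1 and polymerase reads were scaled by TMM and tested with limma 3.58.1 (voom weights, 0.5 reads added, Benjamini-Hochberg adjustment over all peaks or regions) in R 4.3.3, in 1 fit over all groups of a table. Features needed at least 10 reads at the median depth in 2 libraries and 15 in all. RNA was tested with limma on log2 of the TMM-scaled value plus 1, and ATAC-seq with limma on the deposited log2 values. A call is an adjusted p under 0.05. Regions were matched to promoter peaks by at least 1 bp with bedtools 2.31.1. Sequences were read from the NCBIM37 assembly, the same build as the files: 6685 of the promoter peaks lie on its chromosomes, and 95.3% have an annotated start site within 1000 bp. The PU.1 and RNA tests were also run on simulated reads with known changes, where the PU.1 reads held little more than sampling noise.

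The labels do not say that libraries of a group came from separate cultures, so p-values measure the spread between libraries, which may be technical. Chi-square per peak or region between libraries of a group was 0.823 to 1.18 for JunB, 1.03 to 1.04 for MED1 and 1.03 to 1.10 for polymerase. Peaks were named by rule: the strongest 10, the 8 largest called rises and falls in each comparison among peaks with a mean of at least 30 reads and no overlap between libraries (1 per gene), the 4 largest each way of those with 30 reads in the difference of responses, and the strongest and most changed peak of each of 14 gene lists. A peak that this rule also selects is not reported here. Members, lists and classes were chosen with earlier results of these data known. Alternatives were other scalings, filters, pseudocounts and overlaps, the replicate number as a block, and leaving out each library.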

Additional observations from a re-analysis of the deposited data

Results flagged for a closer look

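The LPS response of PU.1 differed between KO and WT cells, by the test of the difference itself (limma with voom weights), at 8 promoter peaks named for it. KO minus WT was negative at Crem (-1.951), Cenpo (-1.833), Plcl2 (-1.768) and Ppp1r18 (-1.544), and positive at Mir7649 (1.945), Rufy1 (1.626), Gm15663 (1.588) and Tnrc18 (1.533).

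In RNA, 22 genes were examined for a library far from the other three of its group, by the gap to the nearest library over the whole range (Dixon's test at 95%). This marked 9 of 88 groups, where chance marks about 1 in 20. Of these, 6 were the fourth WT library with LPS: Ankrd37 at 171.3, Gps2 at 495.5, Itgax at 56.23, Sco2 at 577.2, Tfec at 296.1 and Trem3 at 14.06. The others were Tnf at 25110 in the second KO library with LPS, and Treml4 at 12.43 in the fourth KO library with LPS and at 14.59 in the first untreated KO library.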

How the results depend on the processing

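The cause of the shifts below was not tested, other than where fewer peaks or libraries were used. On library totals, PU.1 gave 10 promoter peaks higher and 2825 lower for KO against WT without LPS, 22 and 1528 with LPS, 89 and 3234 for LPS in KO cells, 40 and 4369 for LPS in WT cells, and 184 and 102 for the difference of responses. RNA gave 979 and 2824 for LPS in KO cells and 959 and 2956 in WT cells. JunB gave 630 and 88 (KO against WT without LPS), 77 and 433 (with LPS), 2046 and 47 (LPS in KO cells), 2982 and 0 (LPS in WT cells) and 22 and 302 (difference). MED1 gave 4 and 4105, and polymerase 55 and 4904. PU.1 at the Rel and E2f1 peaks in KO against WT without LPS turned to -0.0577 and -0.0696. Polymerase at the Pde2a and Emp3 regions turned to -1.0943 and -1.4264. Peaks with a mean of at least 30 reads had fewer higher calls: 65 for KO against WT with LPS, 180 and 287 for LPS in KO and WT cells, and 66 for the difference. Without weights, a pseudocount of 1 gave 76 higher and 46 lower (KO against WT without LPS), 241 lower (with LPS) and 289 higher and 314 lower (LPS in WT cells), and one of 5 gave 89 higher, 175 higher and 264 lower, and 317 higher. Within 500 bp, 67 were lower in KO against WT with LPS, 256 and 281 rose with LPS in KO and WT cells, and 112 were lower in the difference. Other size factors, no filter, fits on the compared groups alone and an overlap of 50% moved no count by over 1.5 times. The planned edgeR and DESeq2 tests were not run: the deposited values are normalised, and the reads recovered from them were tested with limma.

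Replicate numbers did not pair the libraries (correlations -0.0132 to 0.0135 for PU.1, -0.02 to 0.00556 for JunB, -0.53 to 0.318 for RNA). With the replicate number as a block, JunB regions higher in the difference of responses came to 18, and no other count moved by over 1.5 times.

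Leaving out 1 library at a time, PU.1 promoter peaks numbered 100 to 290 higher and 14 to 81 lower (KO against WT without LPS), 21 to 115 and 26 to 149 (with LPS), 152 to 386 and 247 to 672 (LPS in KO cells), 270 to 550 and 94 to 489 (LPS in WT cells), and 43 to 90 and 89 to 186 (difference). KO against WT without LPS gave 123 and 14 without the first untreated KO library, 182 and 18 without the second, 100 and 53 without the first untreated WT library and 146 and 44 without the second. KO against WT with LPS gave 37 lower without the first KO library with LPS, 60 and 26 without the second, 36 and 76 without the first WT library with LPS and 21 and 76 without the second. LPS in KO cells gave 152 and 346 without the first untreated library, 181 higher without the second, 247 lower without the first library with LPS and 240 and 250 without the second. LPS in WT cells gave 270 and 309 without the first untreated library, 354 higher without the second, 352 and 179 without the first library with LPS and 311 and 94 without the second. RNA ranges were 790 to 1558 and 751 to 1604, 1036 to 1568 and 966 to 1570, 1734 to 2298 and 1609 to 2005, 1858 to 2277 and 1623 to 1945, and 437 to 1078 and 486 to 1042 in the same order, the first and last pair reaching 1558 and 1604, and 1078 and 1042, without the fourth WT library with LPS. JunB ranges were 350 to 1091 and 9 to 17, 96 to 220 and 109 to 243, 39 to 82 and 1661 to 2084, 81 to 191 and 625 to 1179, and 5 to 10 and 111 to 557, and libraries of every group moved at least 1 of these counts. MED1 gave 125 to 169 and 65 to 78, lowest without the first (125 and 70) or second (133 and 65) WT library or the second KO library (127 and 72). Polymerase gave 981 to 1134 and 1246 to 1664. ATAC-seq gave 72 to 102 and 100 to 131, with 72 and 107 without the first control library, 100 lower without the second and 105 lower without the second KO library.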

Other observations

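Integrated stress response genes had 12 promoter peaks, of which 1 rose and 2 fell with LPS in KO cells and 2 rose and 0 fell in WT cells, where 5.85% and 9.69% of all promoter peaks rose and fell in KO cells and 8.17% and 7.15% in WT cells. Phgdh, the first enzyme of serine synthesis, was the 1 peak of this list called lower in KO cells with LPS, at 34.7 and 31.98 in KO cells with LPS and 55.8 and 59.3 in WT cells with LPS (limma with voom weights, adjusted p = 0.0188). Over all promoter peaks 1.99% were lower in that comparison. Both KO libraries were below both WT libraries. The Phgdh call was lost without any 1 of these 4 libraries, with changes of -0.83 (first KO), -0.72 (second KO), -0.82 (first WT) and -0.73 (second WT).

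With TMM scaling, the Tlr4 peak, at the receptor for LPS itself, lay in a narrow range across all 8 libraries. It had 207 and 202 in KO cells with LPS, 212 and 225 in untreated KO cells, 219 and 207 in WT cells with LPS, and 198 and 208 in untreated WT cells. None of its 5 comparisons was called on that scale by limma with voom weights, and the smallest adjusted p was 0.387. The TMM factors were 1.51 and 1.52 in untreated WT cells and 0.695 and 0.692 in KO cells with LPS. Without them the untreated WT libraries lay well above the KO libraries with LPS.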
